A study of Homo sapiens with 24 samples.

Results

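Polyamine synthesis and catabolism was followed through 10 genes in HCT116, an established human colon cancer cell line. The genes were taken from a list by their symbol on the array: ODC1, AMD1, SRM and SMS for synthesis, SAT1, SMOX and PAOX for breakdown, and OAZ1, OAZ2 and AZIN1 for control of the first enzyme. All 10 were measured, among 18239 genes, and a gene with several probe sets was read from the one with the highest mean signal over the 24 arrays. The series asks how estrogen receptor β affects the response of colorectal cancer cells to hypoxia.

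The 8 groups hold 3 arrays each. They are ESR2 cells in hypoxia with and without estradiol, ESR2 cells in normoxia with and without estradiol, parental cells in hypoxia with and without estradiol, and parental cells in normoxia with and without estradiol. Per the labels, ESR2 cells carry full-length ESR2, the gene of estrogen receptor β, fused at its N-terminus to HaloTag and brought in by a lentivirus that also encodes GFP and puromycin resistance. They are a selected pool set against untransduced parental cells, and the sources used here name no vector control. Estradiol (17β-estradiol, 10 nM) was added in stripped serum and a medium free of phenol red, and the incubator was flushed with CO2 and nitrogen for hypoxia. The sources used here do not give how long the hypoxia lasted or the medium of the groups without estradiol, so estradiol and medium cannot be told apart. Nothing in the labels says that the 3 arrays of a group came from separate cultures, so the p-values rest on a spread between arrays that may be technical.

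Polyamines (putrescine, spermidine and spermine) are small positively charged molecules that bind nucleic acids and are needed for growth, and spermidine supplies the hypusine of the translation factor eIF5A. Ornithine decarboxylase (ODC1) makes putrescine, S-adenosylmethionine decarboxylase (AMD1) supplies aminopropyl groups, and spermidine synthase (SRM) and spermine synthase (SMS) add them. SAT1 acetylates spermidine and spermine for export or for oxidation by PAOX, while SMOX oxidizes spermine directly. Antizymes (OAZ1, OAZ2) bind ODC1 and send it to the proteasome, and the antizyme inhibitor AZIN1 binds antizyme in turn. In colon tumours ODC1 is known as a MYC target with raised activity. Antizyme synthesis is controlled by ribosomal frameshifting and ODC1 and SAT1 protein turnover is fast, so messenger levels cover only a portion of the control.

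Promoter sequence is shown for the 4 genes whose signal moved most in hypoxic parental cells, since 2 of these genes fell and 2 rose. RefSeq windows on GRCh38.p14 run from 250 bases before to 50 after a gene's start, and were found for 7 of the 10 genes. They are written 5′ to 3′ on the gene's strand in lower case. Capitals mark ACGTG or GCGTG on either strand, the core of the hypoxia response element, and the E-box CACGTG bound by MYC and MAX contains this core, so that the motifs overlap. The ODC1 window lies at chr2:10447963-10448262 on the minus strand, the SRM window at chr1:11059969-11060268 on the minus strand, the SMS window at chrX:21940459-21940758 on the plus strand and the SAT1 window at chrX:23782923-23783222 on the plus strand.
ODC1: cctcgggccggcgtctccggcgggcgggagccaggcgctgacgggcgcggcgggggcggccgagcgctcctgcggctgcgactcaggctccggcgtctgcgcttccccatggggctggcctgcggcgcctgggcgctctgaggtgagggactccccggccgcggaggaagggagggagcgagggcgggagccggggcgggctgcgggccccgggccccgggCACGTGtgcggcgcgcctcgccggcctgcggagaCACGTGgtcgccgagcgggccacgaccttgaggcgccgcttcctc
SRM: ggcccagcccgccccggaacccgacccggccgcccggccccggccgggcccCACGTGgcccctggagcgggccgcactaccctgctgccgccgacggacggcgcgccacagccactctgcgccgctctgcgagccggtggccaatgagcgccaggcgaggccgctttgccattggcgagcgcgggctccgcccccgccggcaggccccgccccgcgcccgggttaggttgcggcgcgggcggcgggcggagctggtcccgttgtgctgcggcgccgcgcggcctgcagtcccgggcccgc
SMS: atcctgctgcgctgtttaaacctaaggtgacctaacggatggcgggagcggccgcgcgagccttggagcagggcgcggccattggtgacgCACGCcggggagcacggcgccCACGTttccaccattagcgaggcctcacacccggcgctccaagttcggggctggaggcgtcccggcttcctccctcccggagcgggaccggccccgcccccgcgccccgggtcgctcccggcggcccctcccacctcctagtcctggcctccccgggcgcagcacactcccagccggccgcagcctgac
SAT1: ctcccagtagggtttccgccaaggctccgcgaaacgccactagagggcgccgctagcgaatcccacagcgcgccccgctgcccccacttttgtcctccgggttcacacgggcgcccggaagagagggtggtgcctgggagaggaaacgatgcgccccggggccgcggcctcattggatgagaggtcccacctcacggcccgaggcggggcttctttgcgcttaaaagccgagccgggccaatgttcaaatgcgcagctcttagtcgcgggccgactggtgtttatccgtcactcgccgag

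The ODC1 window shown held CACGTG 2 times and the SRM window 1 time. A second ODC1 window, at chr2:10448278-10448577 and not shown, held the core 3 times without CACGTG. The SMS window held the core 2 times without CACGTG, and the SAT1 window held neither. AMD1, which also fell in hypoxic parental cells, held CACGTG in 0 of its 3 windows. Among all 35116 windows of 27305 genes, 7.26% held CACGTG and 48.45% held the core. Of the 10 windows of the 7 matched genes, which include a second for ODC1 and 3 for AMD1 that partly overlap, 2 held CACGTG and 7 the core. The palindromic estrogen response element, searched on both strands, was in 0 of these 10 windows and in 0.06% of all windows. These matches describe letters, and binding was not measured.

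Signals are RMA log2 values, so a step of 1 is a doubling of signal. Most of the 10 genes stood among the brighter genes of the array. Ranked by mean signal, OAZ1 stood above 99.7% of all genes, ODC1 and SMS each above 98.1%, SAT1 above 96.4%, AMD1 and AZIN1 each above 91.5%, SRM above 89.5% and OAZ2 above 88.5%. The oxidases SMOX and PAOX were dim, above 56.9% and 42.1% of genes. Probe sets bind with different strength, so these ranks order signals and not amounts of messenger. Across the 8 group means, SAT1 spanned 1.93 on the log2 scale, SMS 1.15, SRM 1.08, ODC1 1.04, AMD1 0.92 and OAZ2 0.91. AZIN1 spanned 0.30 and OAZ1 0.14. For AZIN1 this holds for the brightest probe set, with a mean of 9.30. The other, with a mean of 9.07, ran from 8.49 in hypoxic ESR2 cells with estradiol to 9.80 in hypoxic parental cells without it.

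**Figure D1:**
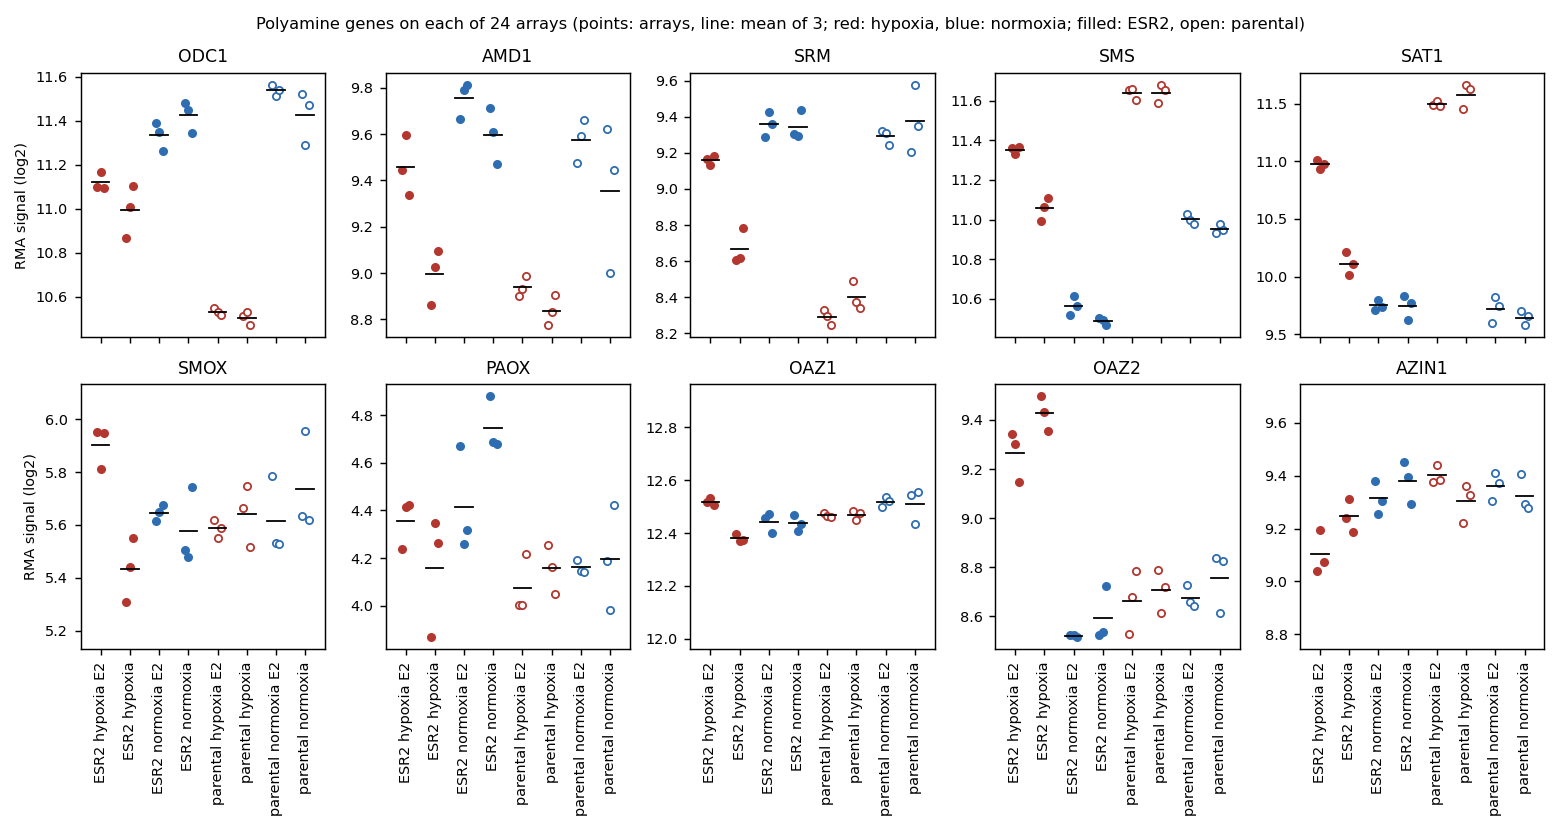
RMA signal (log2, vertical axis) of the 10 genes on each of the 24 arrays, by group along the horizontal axis, with a line at the mean of 3. Red is hypoxia and blue normoxia, filled points are ESR2 cells and open points parental cells, and each panel has its own scale of at least 1 log2 unit. The hypoxic parental arrays of SAT1 sit at 11.45 and above, over every other array of that gene, and OAZ2 exceeds 9 on hypoxic ESR2 arrays only.

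Some arrays stood apart. An index of RNA length, the 3′ minus the 5′ signal averaged over beta-actin and 2 spike-in controls, is higher where labelled RNA is shorter. It was 3.63 ± 0.28 (SD, n = 3) in hypoxic ESR2 cells with estradiol, 4.09 on replicate 2 of parental normoxia without estradiol, and between 1.92 and 2.89 on the other arrays. Markers of colon epithelium were present, with 5 to 6 of 8 above the median gene in every group, while 0 of 6 fibroblast markers and 0 of the 5 measured embryonic kidney markers passed it in any group. Of 5 measured leukocyte markers 1, CD68, passed the median, and their summed linear signal was 184 to 214 in hypoxic ESR2 cells with estradiol, against 71.4 to 122 in the other groups. The part of these markers in the results for that group was not tested. ESR2 signal was higher in ESR2 than in parental cells in all 4 settings, by 0.46 to 1.05 on the log2 scale. ANKRD37, a hypoxia-inducible gene, was higher in hypoxia in all 4 settings, by 3.31 to 4.73.

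In parental cells without estradiol, messenger signal for the enzymes that make putrescine and spermidine was lower in hypoxia. Messenger signal for spermine synthase and the acetyltransferase was higher. ODC1, AMD1 and SRM fell, SMS and SAT1 rose, and the other 5 genes did not pass the test. The 5 genes called compare with 37.5% of all genes called in this comparison. By direction, 2 of 10 were higher against 16.4% of all genes, and 3 of 10 were lower against 21.2%. The median change of the 10 genes was -0.05, against 0.00 over all genes.

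ODC1 gave 10.51, 10.53 and 10.47 in hypoxic parental cells, against 11.52, 11.29 and 11.47 in normoxic parental cells. The groups did not overlap, and the difference was -0.92 ± 0.07 (SE; limma adjusted p = 9.28e-11), a signal 1.90-fold lower in hypoxia. SRM gave 8.49, 8.38 and 8.34 in hypoxic cells, against 9.20, 9.57 and 9.35 in normoxic cells. Its fall by 0.97 ± 0.08 (limma adjusted p = 3.84e-10) had the size of that of ODC1, with no overlap. AMD1 gave 8.77, 8.83 and 8.90 in hypoxic cells, against 9.62, 9.0 and 9.44 in normoxic cells, where the lowest value comes from the array with the index of 4.09. AMD1 fell by 0.52 ± 0.11 (limma adjusted p = 0.000473), and by 0.70 without that array. All 7 probe sets of AMD1 fell, by 0.52 to 0.93.

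SAT1, the rate-limiting enzyme of polyamine breakdown, gave 11.45, 11.66 and 11.62 in hypoxic parental cells, against 9.70, 9.58 and 9.66 in normoxic parental cells. Every hypoxic array was above every normoxic one, by 1.93 ± 0.07 (limma adjusted p = 7.72e-16), or 3.82-fold, and each of its 3 probe sets rose, by 1.90 to 2.68. SMS gave 11.59, 11.68 and 11.65 in hypoxic cells, against 10.93, 10.98 and 10.95 in normoxic cells. The groups were apart by 0.69 ± 0.05 (limma adjusted p = 1.63e-10). Of the 3 SMS probe sets 2 rose, and the third, a dim one, changed by 0.03.

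The oxidases and the antizyme system showed differences of -0.09 for SMOX, -0.04 for PAOX, -0.04 for OAZ1, -0.05 for OAZ2 and -0.02 for AZIN1, none past the threshold. AZIN1 depends on the probe set. Its slightly dimmer probe set rose by 0.93 (limma adjusted p = 5.97e-08 over all probe sets), so that the gene has no settled direction here.

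In parental cells with estradiol the same 5 genes were called in the same directions, beside 34.8% of all genes called, 16.1% higher and 18.7% lower. The changes were -1.01 for ODC1, -0.64 for AMD1, -1.0 for SRM, 0.64 for SMS and 1.77 for SAT1. The slightly dimmer AZIN1 probe set again rose, by 0.78 (limma adjusted p = 1.01e-06 over all probe sets), while the brightest did not pass. SAT1 gave 11.48, 11.52 and 11.48 in hypoxia with estradiol, against 9.60, 9.82 and 9.74 in normoxia with estradiol. These arrays are other samples than those without estradiol, and the difference between the responses with and without estradiol was called for 0 of the 10 genes, 0 of them also at an unadjusted p under 0.05 in limma, beside 0.00548% of all genes.

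ESR2 cells without estradiol also lowered ODC1, AMD1 and SRM and raised SMS and SAT1 in hypoxia, and in addition raised OAZ2 and lowered PAOX. The 7 genes called stand beside 32.6% of all genes called, with 3 higher against 14.4% of all genes and 4 lower against 18.2%. The median was -0.14 for the 10 genes and -0.06 for all genes. SAT1 gave 10.21, 10.02 and 10.11 in hypoxic ESR2 cells, against 9.83, 9.63 and 9.77 in normoxic ESR2 cells. The groups were apart, but the rise was 0.37 (limma adjusted p = 0.000322). ODC1 gave 10.87, 11.01 and 11.10 in hypoxic ESR2 cells, against 11.48, 11.45 and 11.35 in normoxic ESR2 cells. Its fall was 0.43 (limma adjusted p = 2.44e-05), and the fall of SRM was 0.67 (limma adjusted p = 3.97e-07). AMD1 fell by 0.60 and SMS rose by 0.57. AZIN1 was not called on its brightest probe set, but the other rose by 0.39 (limma adjusted p = 0.00448 over all probe sets).

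OAZ2, an antizyme like OAZ1, gave 9.50, 9.43 and 9.35 in hypoxic ESR2 cells, against 8.52, 8.53 and 8.72 in normoxic ESR2 cells. The rise was 0.83 ± 0.08 (limma adjusted p = 2.17e-08), and its 2 probe sets rose by 0.82 and 0.83. PAOX gave 3.87, 4.35 and 4.26 in hypoxic ESR2 cells, against 4.88, 4.69 and 4.68 in normoxic ESR2 cells. It fell by 0.59 ± 0.12 (limma adjusted p = 0.000567), on 1 of its 6 probe sets, at a signal below the median gene.

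**Figure D2:**
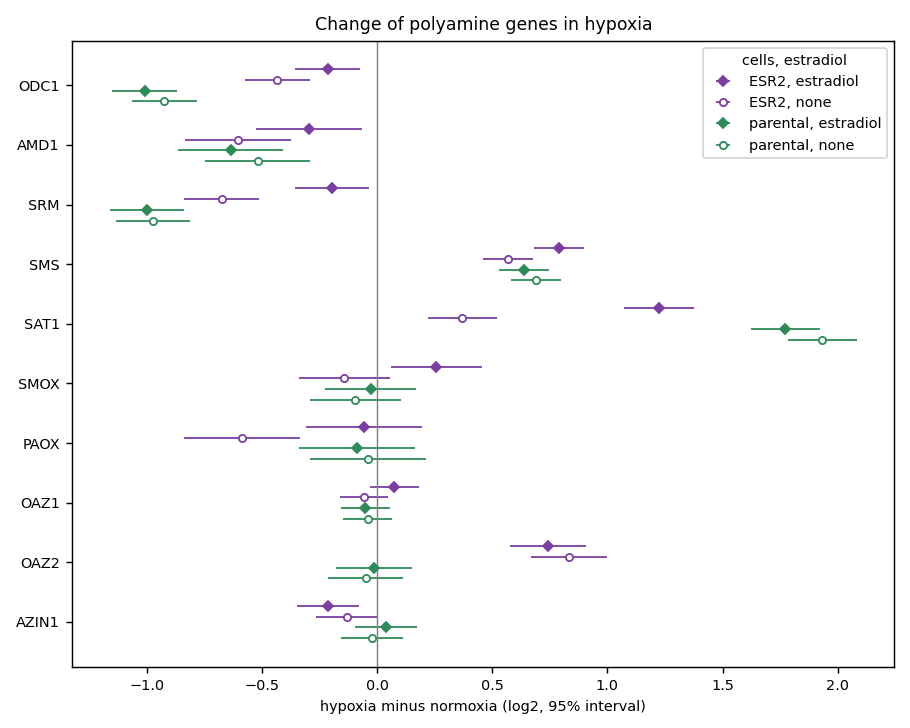
Difference between hypoxia and normoxia (log2, horizontal axis) with its 95% interval for each of the 10 genes, in ESR2 cells with and without estradiol and parental cells with and without estradiol. SAT1 lies at 1.22 and 0.37 in ESR2 cells and at 1.77 and 1.93 in parental cells, and OAZ2 lies near 0.8 in ESR2 cells only.

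The test of the difference between these responses, the hypoxia change in ESR2 cells minus that in parental cells without estradiol, called 5 of the 10 genes, beside 30.7% of all genes. There were 3 genes with a higher value in ESR2 cells against 16.4% of all genes, and 2 with a lower value against 14.3%. SAT1 differed by -1.56 ± 0.10 (limma adjusted p = 1.09e-10), and all 3 of its probe sets gave a lower value, between -2.11 and -1.04. OAZ2 differed by 0.88 ± 0.11 (limma adjusted p = 1.77e-06) and ODC1 by 0.49 ± 0.10 (limma adjusted p = 0.00036). SRM differed by 0.30 ± 0.11 (limma adjusted p = 0.0427) and PAOX by -0.55 ± 0.17 (limma adjusted p = 0.0177). The calls of these 2 genes were not firm. SRM was no longer called on leaving out any of 7 arrays of 12, with its lowest value, 0.20 (limma adjusted p = 0.127), without replicate 2 of parental normoxia. PAOX was no longer called without 3 of the 12, and was -0.44 (limma adjusted p = 0.0523) without that same array. No other probe set of PAOX was called. The second SRM probe set differed by 0.58 (limma adjusted p = 0.0108 over all probe sets). SAT1, OAZ2 and ODC1 kept their calls in all 12 and in all 11 other settings.

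AMD1 differed between the responses by -0.08, with a 95% interval from -0.41 to 0.24, and SMS by -0.12, with an interval from -0.27 to 0.03. Neither passed the test, and the intervals show what size of difference these arrays leave possible. AZIN1 differed by -0.11 without passing, but its other probe set differed by -0.55 (limma adjusted p = 0.00517 over all probe sets).

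**Figure D3:**
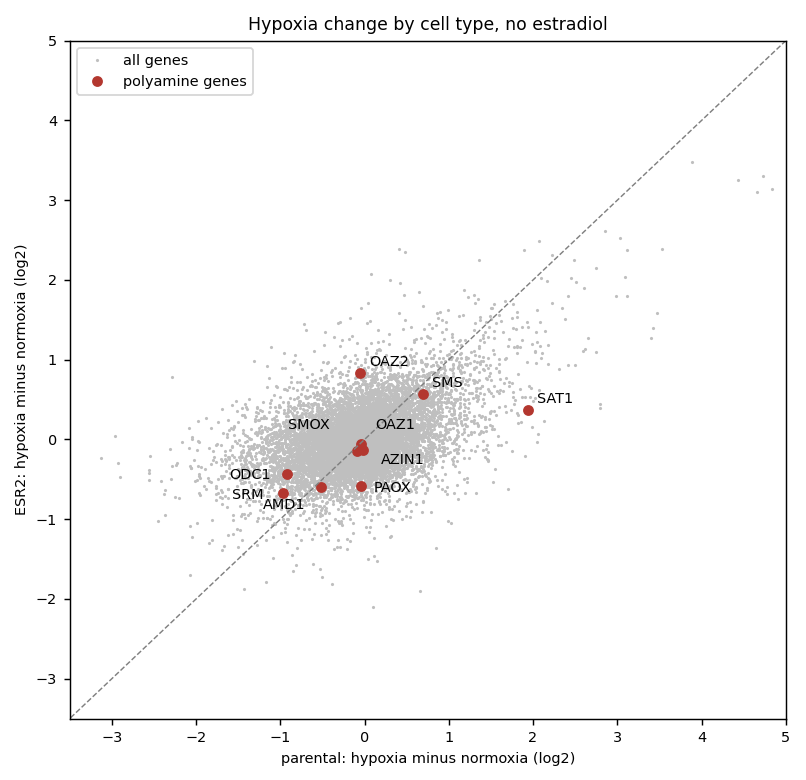
Change in hypoxia without estradiol (log2) of all 18239 genes in grey and the 10 polyamine genes in red, with parental cells on the horizontal axis and ESR2 cells on the vertical axis. The dashed line marks equal changes. SAT1 lies far below it and OAZ2 above it, while SMS and AMD1 lie near it.

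In hypoxia without estradiol the comparison of ESR2 with parental cells called 5 of the 10 genes, beside 40.4% of all genes, with 3 higher against 20.4% and 2 lower against 20%. SAT1 was 10.21, 10.02 and 10.11 in ESR2 cells, against 11.45, 11.66 and 11.62 in parental cells, a difference of -1.47 or 2.76-fold (limma adjusted p = 2.61e-13). SMS was also lower in ESR2 cells, by 0.58 on the log2 scale. AZIN1 was not called on its brightest probe set, but the other differed by -0.60 (limma adjusted p = 3.56e-05 over all probe sets). ODC1 was higher by 0.49, SRM by 0.27 and OAZ2 by 0.72. OAZ2 gave 9.50, 9.43 and 9.35 in ESR2 cells, against 8.79, 8.61 and 8.72 in parental cells, so that the groups were apart.

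In normoxia without estradiol the cell lines differed in 2 of the 10 genes, beside 18.6% of all genes, 9.76% higher and 8.86% lower. SMS gave 10.50, 10.49 and 10.47 in ESR2 cells, against 10.93, 10.98 and 10.95 in parental cells, and was lower by 0.46 (limma adjusted p = 1.23e-06). PAOX, a dim gene, was higher by 0.55 (limma adjusted p = 0.00241). A dimmer PAOX probe set was higher by 0.25 (limma adjusted p = 0.0425 over all probe sets). Its remaining probe sets differed by -0.14 to 0.10 and were not called. The other OAZ2 probe set differed by -0.31 (limma adjusted p = 0.0118 over all probe sets). SAT1 and ODC1 overlapped between the cell lines in normoxia. With estradiol in normoxia 2 genes were called, 0 higher beside 8.45% of all genes and 2 lower beside 5.22%, or 13.7% in either direction. SMS was lower by 0.44 and ODC1 by 0.20 (limma adjusted p = 0.0477), and the call of ODC1 was lost whichever array of the compared groups was left out. SMS was thus lower in ESR2 than in parental cells in all 4 settings of oxygen and estradiol, by 0.29 to 0.58.

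Estradiol called 0 of the 10 genes in hypoxic parental cells, in normoxic ESR2 cells and in normoxic parental cells. Of all genes, limma called 0.0164%, 0% and 0.011% in these 3 comparisons. At an unadjusted p under 0.05, limma gave 0 of the 10 genes in hypoxic parental cells, 1 in normoxic ESR2 cells and 0 in normoxic parental cells. In hypoxic ESR2 cells it called 6 genes, all 6 higher, beside 57% of all genes called, 35.4% higher and 21.6% lower. Among the called genes of the array 62.1% were higher. The median was 0.25 for the 10 genes and 0.12 for all genes. The upper quartile of signal was lower, at 6.34 to 6.37 on the arrays with estradiol against 6.51 to 6.60 on those without. The part of these shifts in the values of the 10 genes was not tested.

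SAT1 gave 11.01, 10.94 and 10.98 in hypoxic ESR2 cells with estradiol, against 10.21, 10.02 and 10.11 in those without. The groups were apart by 0.86 ± 0.07 (limma adjusted p = 9.14e-10), 1.82-fold. SRM gave 9.17, 9.13 and 9.18 with estradiol, against 8.61, 8.62 and 8.79 without, and rose by 0.49 (limma adjusted p = 1.4e-05), while its second probe set changed by 0.23 (limma adjusted p = 0.101 over all probe sets). SMOX gave 5.95, 5.81 and 5.95 with estradiol, against 5.31, 5.44 and 5.55 without, and rose by 0.47 (limma adjusted p = 0.000239), on 1 of its 4 probe sets. SMS rose by 0.30 (limma adjusted p = 5.14e-05). OAZ1 gave 12.52, 12.53 and 12.50 with estradiol, against 12.40, 12.37 and 12.38 without. Its rise of 0.14 (limma adjusted p = 0.0252) lies close to the median change of all genes. OAZ1 lost its call in 6 of 11 other settings, among them arrays centred on their medians (0.11, limma adjusted p = 0.0734). The call was also lost without any of 3 of the 6 arrays compared. The other probe sets of OAZ1 changed by -0.02 to 0.13, and none of them was called. ODC1 changed by 0.13, PAOX by 0.20, OAZ2 by -0.16 and AZIN1 by -0.15, without passing the test. The other probe set of OAZ2 fell by 0.49 (limma adjusted p = 3.23e-05 over all probe sets) and that of AZIN1 by 0.70 (limma adjusted p = 3.68e-06 over all probe sets), so that the absence of lower calls among the 10 genes holds for the brightest probe sets.

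AMD1 had a split record here. Its brightest probe set gave 9.44, 9.60 and 9.34 with estradiol, against 8.86, 9.03 and 9.09 without, and rose by 0.46 (limma adjusted p = 0.00119). Of the other 6 probe sets, 3 fell, by 0.50 to 0.79, and 3 changed by -0.09 to 0.03, so that no direction for the gene can be given. SAT1 had 2 probe sets that rose, by 0.86 and 0.95, and a dim one that fell by 0.48 (limma adjusted p = 0.0272 over all probe sets).

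**Figure D4:**
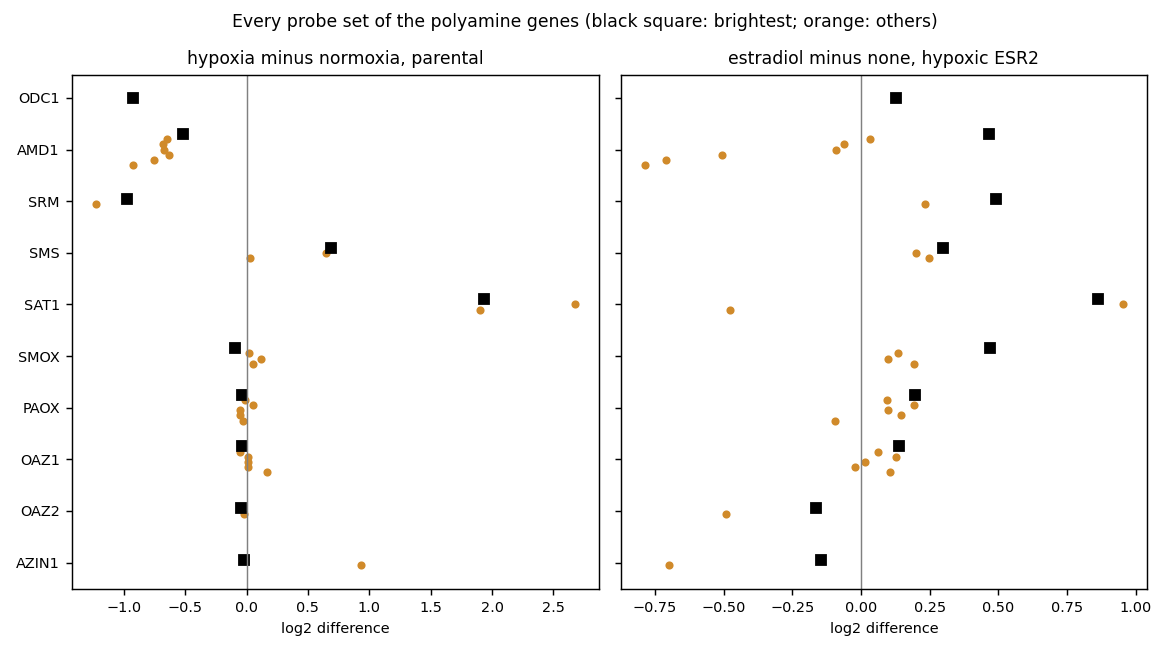
Difference (log2, horizontal axis) of every probe set of the 10 genes, for hypoxia minus normoxia in parental cells without estradiol (left) and estradiol minus none in hypoxic ESR2 cells (right). Black squares are the brightest probe set of a gene and orange points the others. On the left the 7 AMD1 probe sets lie together between -0.93 and -0.52, and on the right they spread from -0.79 to 0.46.

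The RNA length index moved with this comparison, at 3.63 ± 0.28 with estradiol against 2.06 ± 0.14 without (SD, n = 3 each). With the index as a covariate, limma called 3 of the 10 genes in place of 6, with SAT1 at 0.86, AMD1 at 0.79 and SMS at 0.25, and SRM was 0.23 (limma adjusted p = 0.117). With the index as a covariate and replicate 2 of parental normoxia left out, limma called 0 of the 10 genes, and SAT1 was 0.54 (limma adjusted p = 0.0605). The SE of SAT1 was 0.19 in this fit, against 0.07 without the index. The index and the group move together, so the loss of calls goes with lower precision.

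Hypoxia in ESR2 cells with estradiol called 8 of the 10 genes, beside 52.3% of all genes, with 4 higher against 29.6% and 4 lower against 22.6%. SAT1 rose by 1.22 (limma adjusted p = 1.52e-12), or 2.34-fold, SMS by 0.79, OAZ2 by 0.74 and SMOX by 0.26. ODC1 fell by 0.21 (limma adjusted p = 0.0109), AMD1 by 0.30, SRM by 0.20 (limma adjusted p = 0.0383) and AZIN1 by 0.21. On leaving out 1 of the 6 arrays compared, the call of SRM was lost in 5 cases, and those of AMD1 and SMOX in 4 each. The second SRM probe set changed by -0.39 (limma adjusted p = 0.00771 over all probe sets). Every other AMD1 probe set also had a lower mean in hypoxia. These means ran from 8.95 against 9.58 on the least changed to 5.89 against 7.34 on the most changed. With the index as a covariate 4 were called, SAT1, SMS, OAZ2 and SRM, and with replicate 2 of parental normoxia also left out 4, SAT1, SMS, OAZ2 and AMD1.

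With estradiol, the hypoxia change in ESR2 cells minus that in parental cells called 5 of the 10 genes, beside 38.6% of all genes, 20.6% higher and 18.1% lower. ODC1 differed by 0.79, SRM by 0.80, OAZ2 by 0.76, SAT1 by -0.55 and AZIN1 by -0.25. On this probe set the call of AZIN1 was lost without any of 7 of the 12 arrays. The other AZIN1 probe set, slightly dimmer, differed by -0.96 (limma adjusted p = 8.16e-06 over all probe sets). In hypoxia with estradiol, ESR2 against parental cells called 8 of the 10 genes, 5 higher and 3 lower, beside 47.7% of all genes, 27.8% higher and 19.8% lower. SRM gave 9.17, 9.13 and 9.18 in ESR2 cells, against 8.33, 8.30 and 8.24 in parental cells, and was higher by 0.87 (limma adjusted p = 1.63e-09). ODC1 was higher by 0.59, AMD1 by 0.52, OAZ2 by 0.60 and SMOX by 0.32, while SAT1 was lower by 0.52, SMS by 0.29 and AZIN1 by 0.30. The other AZIN1 probe set differed by -1.24 (limma adjusted p = 3.47e-10 over all probe sets). AMD1 has no settled direction here, since 1 of its 7 probe sets was higher and 3 were lower, by 0.44 to 0.52. This comparison, too, holds the arrays with the high index. With the index as a covariate SMOX was 0.14 (limma adjusted p = 0.432), and with replicate 2 of parental normoxia also left out 5 genes were called, without AMD1 (0.24, limma adjusted p = 0.364), SMOX and AZIN1.

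The change of the hypoxia response with estradiol in ESR2 cells was called for 5 genes, all 5 higher on their brightest probe sets. Of all genes 43.8% were called, 25.4% higher and 18.4% lower. The other OAZ2 probe set differed by -0.45 (limma adjusted p = 0.00415 over all probe sets). The other AZIN1 probe set differed by -0.57 (limma adjusted p = 0.00286 over all probe sets). The change of the estradiol response with ESR2 in hypoxia was called for 5, with 4 higher beside 23.4% of all genes and 1 lower beside 18.6%, or 42% in either direction. In this comparison the other probe set of OAZ2 differed by -0.32 (limma adjusted p = 0.0337 over all probe sets). That of AZIN1 differed by -0.64 (limma adjusted p = 0.000999 over all probe sets). Among the 10 genes SAT1 had the largest difference in both comparisons, at 0.86 and 0.95. Both comparisons rest on the arrays with the high index. With the index as a covariate and replicate 2 of parental normoxia left out, limma called 0 of the 10 genes in the first, where SAT1 was 0.54 (limma adjusted p = 0.083) and PAOX, at 0.64, was larger, and 1 in the second, SAT1 at 0.65. The SE of SAT1 in the first was 0.21 in that fit, against 0.10 without the index. In normoxia the estradiol response did not differ between cell lines for any of the 10 genes in limma, with 1 gene at an unadjusted p under 0.05, beside 0% of all genes.

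The order of the groups brings these comparisons together. Means are given with their SD (n = 3). SAT1 was highest in hypoxic parental cells with estradiol (11.49 ± 0.02) and without it (11.58 ± 0.11), which overlapped, then in hypoxic ESR2 cells with estradiol (10.97 ± 0.04) and without it (10.11 ± 0.10), each apart from its neighbour, and the 4 normoxic means lay between 9.64 and 9.75. Normoxic groups next to each other in order overlapped, while ESR2 cells with estradiol lay wholly above parental cells without it. SMS had its highest 3 means in hypoxic parental cells with (11.64 ± 0.03) and without estradiol (11.64 ± 0.05) and in hypoxic ESR2 cells with estradiol (11.35 ± 0.02), and its lowest in the normoxic ESR2 groups with (10.56 ± 0.05) and without estradiol (10.49 ± 0.02). ODC1 ran the other way, with the 4 normoxic means between 11.33 and 11.54, where neighbours in order overlapped but ESR2 cells with estradiol lay wholly below parental cells with estradiol, hypoxic ESR2 cells at 11.12 ± 0.04 with and 10.99 ± 0.12 without estradiol, and hypoxic parental cells lowest, at 10.53 ± 0.02 with and 10.50 ± 0.03 without estradiol. SRM followed the same order as ODC1 for its hypoxic groups, except that parental cells with estradiol (8.29 ± 0.04) stood below those without it (8.40 ± 0.08). AMD1 groups next to each other in order overlapped throughout. OAZ2 had its highest 2 means in hypoxic ESR2 cells with (9.26 ± 0.10) and without estradiol (9.43 ± 0.07), and the other 6 means lay between 8.52 and 8.76. Neighbours among these 6 overlapped, but normoxic ESR2 cells with estradiol lay wholly below all 4 parental groups.

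Genes whose 8 group means ran most like those of a polyamine gene were looked up among 3843 genes with a span of at least 1 on the log2 scale. For ODC1 these were TACO1 (Pearson r = 0.997), NDUFAF6 (0.993) and AEN (0.992). For SRM they were LAMA2 (0.997), ATF5 (0.990) and MRPL4 (0.988), and for SMS KDSR (0.996), CLK3 (0.983) and SYTL3 (0.982). For SAT1 they were CLIC4 (0.991), SNAPC3 (0.989) and EMP1 (0.985). These are descriptions over 8 means that share arrays, with the best of many genes picked.

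The genes around the polyamine enzymes were taken from 28 others that supply ornithine, arginine and S-adenosylmethionine, further antizyme and acetyltransferase genes, hypusination enzymes with their substrate, and transporters. All 28 were measured. In hypoxic ESR2 cells without estradiol 3 rose, 6 fell and 19 did not pass, while in hypoxic parental cells without estradiol 1 rose, 12 fell and 15 did not pass. Over all genes, 14.4% were called higher and 18.2% lower in ESR2 cells, and 16.4% higher and 21.2% lower in parental cells. Their median change was -0.07 in ESR2 cells and -0.09 in parental cells. ARG2, the mitochondrial arginase that makes ornithine, changed by 0.13 in ESR2 cells without passing. In parental cells it was the one gene that rose, by 1.0 (limma adjusted p = 9.13e-11), and the difference between these responses was -0.87 (limma adjusted p = 7.44e-07).

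Of 4 hypusination genes, 1 rose and 1 fell in hypoxic ESR2 cells, and 2 fell in hypoxic parental cells. DOHH, the hydroxylase that completes hypusine, rose by 0.33 in hypoxic ESR2 cells (limma adjusted p = 0.0314) and fell by 0.92 in hypoxic parental cells (limma adjusted p = 4.15e-07). EIF5A2, an eIF5A isoform that carries hypusine, fell by 0.76 in ESR2 cells and by 1.14 in parental cells, and DOHH differed between the responses by 1.25 (limma adjusted p = 2.27e-06). Among 6 transport genes 2 fell in hypoxic ESR2 cells, ATP13A3 by 0.48 and SLC18B1 by 0.26, and 4 fell in hypoxic parental cells. SLC3A2, an amino acid transporter subunit also linked to polyamine export, changed by 0.24 in ESR2 cells without passing and fell by 0.90 in parental cells (limma adjusted p = 5.38e-08). SLC3A2 differed between the responses by 1.14 (limma adjusted p = 9.26e-07).

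Of the 8 genes of S-adenosylmethionine supply and methylthioadenosine salvage, 2 rose and 3 fell in hypoxic ESR2 cells, and 4 fell in hypoxic parental cells, among them MAT2A by 3.13. APIP, a salvage dehydratase, fell in both, by 0.90 in ESR2 cells and by 0.46 in parental cells. ADI1 and MTAP, also of the salvage path that recycles the by-product of SRM and SMS, rose in hypoxic ESR2 cells, by 0.54 and 0.32, and changed by -0.04 and -0.06 in hypoxic parental cells. Estradiol in hypoxic ESR2 cells was called for 11 of the 28 genes higher and 7 lower, in the group with the high index, where 35.4% of all genes were called higher and 21.6% lower, so the counts do not set these genes apart. There ARG2 rose by 0.92 and EIF5A2 by 1.35, while SLC7A1, an arginine transporter, fell by 1.52 and DOHH by 1.31.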

How the data were processed

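Total RNA of HCT116 cells was measured on 24 Affymetrix arrays. The values are log2 signals deposited by the authors, made with affy and RMA per the submitters' processing notes (versions not given in the sources used here). RMA quantile-normalizes the arrays and compresses changes of dim genes. Of 49386 probe sets, 45253 had 1 gene symbol in GEO's platform annotation. Each of 18239 genes was read from its brightest probe set, with no filter. Array medians lay between 4.07 and 4.13, and the number of arrays limits the precision.

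A mean per group was fitted with limma 3.58.1 in R 4.3.3 to all 24 arrays (eBayes, no trend), for 18 comparisons, with Benjamini-Hochberg adjustment over all genes within each and a threshold of 0.05; the fit was tested on simulated data. Table handling used pandas 2.3.3 and data.table (version 1.17.8), and figures were drawn with matplotlib 3.10.9. Errors are limma's SE or the SD. Same-numbered arrays did not deviate together (median r -0.02 over 84 pairs, against 0.02 over 168 pairs of different number), so numbers were not used as a block. The 10 genes are always named, and other genes only from 28 listed pathway genes (up to 4 of each group by smallest p), check genes, markers and the 3 genes most like each wide-spanning member. The members and lists were chosen with earlier results of these data known. Alternatives were other normalizations, filters, probe set rules, moderation, array weights, fewer samples, a replicate block, the index covariate and leaving out arrays.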

Additional observations from a re-analysis of the deposited data

Results flagged for a closer look

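Of 60 tests of a difference between responses, over the 10 genes, 20 passed limma's adjusted threshold. Over all genes, the shares called in the 6 kinds of difference were 38.6% and 30.7% for hypoxia by ESR2 with and without estradiol, 43.8% and 0.00548% for hypoxia by estradiol in ESR2 and parental cells, and 42% and 0% for estradiol by ESR2 in hypoxia and normoxia, so the number of calls does not set the 10 genes apart. The hypoxia change in ESR2 cells minus that in parental cells without estradiol was 0.49 for ODC1, 0.30 for SRM, -1.56 for SAT1, -0.55 for PAOX and 0.88 for OAZ2. With estradiol the same difference was 0.79 for ODC1, 0.80 for SRM, -0.55 for SAT1, 0.76 for OAZ2 and -0.25 for AZIN1.

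The hypoxia change with estradiol minus that without, in ESR2 cells, was 0.48 for SRM, 0.22 for SMS, 0.86 for SAT1, 0.40 for SMOX and 0.53 for PAOX. The PAOX value is that of its brightest probe set, and no other PAOX probe set was called. The estradiol change in ESR2 cells minus that in parental cells, in hypoxia, was 0.60 for SRM, 0.30 for SMS, 0.95 for SAT1, 0.53 for SMOX and -0.24 for AZIN1. These last 2 families rest on hypoxic ESR2 cells with estradiol, the arrays with the high 3′ minus 5′ index.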

How the results depend on the processing

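Over alternatives other than leaving out an array, 1869 of 1980 values kept direction and call, 60 lost and 47 gained a call and 4 reversed. Of 68 called changes of the 10 genes, 40 kept their call in every setting. With probe sets averaged per gene, the reversals were AZIN1 in hypoxic parental cells without estradiol (0.46), and AMD1 in ESR2 against parental cells in hypoxia with estradiol (-0.12), in estradiol in hypoxic ESR2 cells (-0.24) and in the change of the hypoxia response with estradiol in ESR2 cells (-0.30); probe sets of these genes differ in direction. That setting called 4 genes against 2 for ESR2 in normoxia with estradiol, and 8 against 5 for the change of the hypoxia response with estradiol in ESR2 cells. Every probe set and the replicate block each gave 1 against 2 for ESR2 in normoxia with estradiol, and the block moved no other count of the 10 genes by over 1.5 times. Array weights gave 4 against 2 for ESR2 in normoxia without estradiol; the cause was not tested.

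The index covariate gave 4 against 8 for hypoxia in ESR2 cells with estradiol, 3 against 6 for estradiol in hypoxic ESR2 cells, and 3 against 5 for the estradiol by ESR2 difference in hypoxia. With replicate 2 of parental normoxia also left out, the counts were 4 against 8 for hypoxia in ESR2 cells with estradiol, 5 against 8 for ESR2 in hypoxia with estradiol, 3 against 5 for the hypoxia by ESR2 difference without estradiol, 0 against 6 for estradiol in hypoxic ESR2 cells, 0 against 5 for the hypoxia by estradiol difference in ESR2 cells, and 1 against 5 for the estradiol by ESR2 difference in hypoxia. This setting called 2956 of all genes for estradiol in hypoxic ESR2 cells, against 10394 as reported. The SE of SAT1 in that comparison was 0.19 in this setting, against 0.07 as reported, so lost calls go with lower precision.

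Leaving out 1 array at a time gave 3 to 5 genes for the hypoxia by ESR2 difference without estradiol, with 3 without replicate 2 of parental normoxia or replicate 1 of normoxic ESR2 cells. It gave 1 for ESR2 in normoxia with estradiol, 5 to 7 for hypoxia in ESR2 cells with estradiol, and 2 to 6 for the hypoxia by estradiol difference in ESR2 cells, with 2 without replicate 1 of hypoxic ESR2 cells. Estradiol in normoxic parental cells called 643 of all genes without replicate 1 of parental normoxia, against 2, and 0 of the 10 genes. Over all genes, counts for ESR2 in normoxia without estradiol were 5187 with array weights and 1061 with only the groups compared, against 3396. With estradiol they were 4437 and 3772, against 2494. Testing every probe set about doubled most counts, since more features were tested.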
